A study of Mus musculus with 153 samples.

Results

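The 36 Hox genes measured singly in mouse tail skin are described here, out of 18810 genes with a value. Each was taken as the probe set that carried 1 gene symbol made of Hoxa, Hoxb, Hoxc or Hoxd and a number, and each had 1 such probe set. The Hoxa cluster on chromosome 6 gave 10 genes, the Hoxb cluster on chromosome 11 gave 9, the Hoxc cluster on chromosome 15 gave 9 and the Hoxd cluster on chromosome 2 gave 8. Hoxd13 was not analysed here, and Hoxb8 shares its probe set with another gene of its cluster and was left out.

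Tail skin was taken at 8 weeks of age from untreated backcross mice, 1 array per mouse. Female F1 hybrids of spretus males (Mus spretus) and FVB/N Hras-/- females had been mated with FVB/N males that were Hras -/- or Hras -/+. The HET group holds 37 mice with 1 null Hras allele (19 males and 18 females), and the WT group 114 mice with both alleles (62 males and 52 females). All carried spretus segments in a pattern of their own on an FVB/N background. As the cross is described, the only intact Hras allele of the F1 mothers was the spretus one, so WT mice carried it. HET mice could instead have taken their intact allele from an FVB/N father that was Hras -/+. Genotype was thus partly tied to spretus ancestry around Hras. Plate 1 held 49 of these mice (9 HET), plate 2 held 46 (10 HET) and plate 3 held 56 (18 HET). A further 2 WT arrays labelled as outliers were left out. The values are log2 signals summarised by RMA, and the number of mice, not a depth, limits the precision.

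Hox genes encode transcription factors that bind DNA through a homeodomain. In mammals they lie in 4 clusters, and genes of the same number in different clusters are paralogues. Their order along a cluster matches the order in which they are switched on from the head to the tail of the embryo, low numbers in front and high numbers behind. Adult skin cells, fibroblasts above all, keep much of the Hox pattern of the place they come from. Hoxc13 has a further role in the hair follicle, where it drives keratin genes of the hair shaft.

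As a check of the tissue, all 18 measured genes of an epidermis list, 26 of 26 hair shaft and inner root sheath genes and 19 of 19 dermal fibroblast genes had means above the median signal of the arrays. Skeletal muscle genes passed that mark in 11 of 20 cases, close to the share of all genes (10825 of 18810). In such bulk tissue, fewer cells of a type and less RNA per cell cannot be told apart.

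The 3 genes of the Hoxd cluster that varied together most closely are Hoxd4, Hoxd10 and Hoxd11, and the sequence of the 250 bases before their starts is printed for that reason. Hoxd4 is a gene of the front part of the cluster, known for the identity of neck vertebrae, while Hoxd10 and Hoxd11 pattern the limb, the sacrum and the tail. The stretches come from RefSeq on build GRCm38.p6, plus strand, and were chr2:74721728-74721977 for Hoxd4, chr2:74691641-74691890 for Hoxd10 and chr2:74682073-74682322 for Hoxd11. RefSeq annotates 2 starts for Hoxd11, and the downstream one was used. Capitals mark matches on either strand to 5 motifs: TAATTA, bound by many homeodomains; TTTATG, bound by posterior Hox proteins; TATAAA, the core of the TATA box; CCAAT, bound by nuclear factor Y; and GGGCGG, bound by Sp proteins. No match overlapped another.
Hoxd4: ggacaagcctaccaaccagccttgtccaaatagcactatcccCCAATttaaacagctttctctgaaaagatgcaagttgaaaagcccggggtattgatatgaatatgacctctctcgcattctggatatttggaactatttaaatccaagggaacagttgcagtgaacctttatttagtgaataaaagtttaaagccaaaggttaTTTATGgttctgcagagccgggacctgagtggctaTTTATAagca
Hoxd10: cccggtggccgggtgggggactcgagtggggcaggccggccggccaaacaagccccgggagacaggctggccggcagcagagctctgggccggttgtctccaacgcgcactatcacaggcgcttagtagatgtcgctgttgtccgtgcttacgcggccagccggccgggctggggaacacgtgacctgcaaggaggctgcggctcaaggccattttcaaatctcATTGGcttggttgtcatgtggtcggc
Hoxd11: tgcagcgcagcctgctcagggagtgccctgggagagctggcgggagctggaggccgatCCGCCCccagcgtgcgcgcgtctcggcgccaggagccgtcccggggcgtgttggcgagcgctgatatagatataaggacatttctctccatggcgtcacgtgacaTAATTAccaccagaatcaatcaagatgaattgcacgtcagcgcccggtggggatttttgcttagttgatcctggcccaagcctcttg

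The 3 stretches differ in make-up. G and C make up 40.4% of the Hoxd4 stretch, which holds 3 CpG pairs, against 65.6% of the Hoxd10 stretch and 60.4% of the Hoxd11 stretch, which hold 20 CpG pairs each. Over 32851 RefSeq promoters of the same length the medians were 52.4% and 6 CpG pairs. The Hoxd4 stretch has 1 match to TTTATG, 1 to TATAAA and 1 to CCAAT. The Hoxd10 stretch has 1 match to CCAAT, and the Hoxd11 stretch has 1 to TAATTA and 1 to GGGCGG. No motif is shared by all 3. Of all promoters, 10.8% hold TTTATG, 4.84% TAATTA, 12.4% TATAAA, 33.8% CCAAT and 32.7% GGGCGG. The table holds 24 promoters of 22 Hox genes, and 14 of these 24 (58.3%) have a CCAAT match.

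MicroRNAs encoded inside the clusters were also on the arrays. The mature RNAs of Mir10a beside Hoxb4 (chr11:96317186-96317208, plus strand), Mir10b beside Hoxd4 (chr2:74726074-74726096, plus strand), Mir196a-1 beside Hoxb9 (chr11:96265187-96265208, plus strand) and Mir196b beside Hoxa9 (chr6:52230129-52230150, minus strand) are printed from RefSeq, build GRCm38.p6. They are shown because their probe sets were set against the neighbouring Hox genes. Capitals mark the seed, bases 2 to 8.
miR-10a-5p: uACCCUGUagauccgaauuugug
miR-10b-5p: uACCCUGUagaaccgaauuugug
miR-196a-5p: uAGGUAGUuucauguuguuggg
miR-196b-5p: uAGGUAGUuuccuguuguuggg

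Both miR-10 RNAs have the same seed, as do both miR-196 RNAs. Counted from the 5′ end, miR-10b differs from miR-10a by U12A, and miR-196b from miR-196a by A12C. The miR-196 family is known to cut Hoxb8 mRNA in mouse embryos. Across mice the Mir10a probe set correlated with Hoxb4 at r = 0.412 (0.405, 0.512 and 0.311 on plates 1, 2 and 3), and Mir10b with Hoxd4 at r = 0.366 (0.307, 0.537 and 0.229). Both precursor probe sets were dim, with means of 2.41 and 2.85. Mir196b and Hoxa9 gave r = 0.166, Mir196a-1 and Hoxb9 gave 0.011, and Mir196a-2 and Hoxc9 gave 0.049. Here and for all correlations below, values are residuals after genotype, sex and plate in 151 mice.

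In tail skin, 18 of the 36 Hox means lay above 4.82, the median of the array medians, and 18 below it. Among all 18810 genes, 10825 had means above that mark, so the Hox share was slightly lower than the background. Probe sets differ in how well they bind, so these signals place each gene against its arrays and do not rank transcript amounts between genes. The dimmest part of the scale began below the lower quartile of an array, which lay between 3.02 and 3.20. Hoxd1 was below it on 148 of 151 arrays and Hoxd12 on 134, Hoxc4 on 18 and Hoxa11 on 13. No other Hox gene fell below it on any array.

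In the Hoxd cluster, Hoxd4 and Hoxd8 to Hoxd11 were above the array median on every array. Hoxd11 ran from 7.67 through a median of 8.32 to 8.61 in HET mice and from 7.74 through 8.32 to 8.97 in WT mice. Hoxd10 lay at 7.51, 8.04 and 8.42 (lowest, median, highest) in HET mice, against 7.26, 8.01 and 9.20 in WT mice. The HET and WT ranges overlapped for both genes. The highest value of each gene was that of a WT mouse, but WT is the larger group (114 mice against 37), where extremes are likelier. Hoxd9 gave 6.14, 6.54 and 6.97 in HET mice, against 6.05, 6.52 and 7.01 in WT mice, and Hoxd8 gave 6.66, 7.0 and 7.34 in HET mice, against 6.47, 7.0 and 7.60 in WT mice. Hoxd12 averaged 2.89 ± 0.19 in HET and 2.90 ± 0.19 in WT mice (SD). Hoxd4 had 5.03, 6.15 and 6.70 in HET mice, against 5.46, 6.03 and 7.16 in WT mice.

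In the Hoxc cluster the last 2 genes were above the array median on every array. Hoxc13 gave 7.37, 7.80 and 8.42 in HET mice, against 7.01, 7.87 and 8.62 in WT mice, and exceeded the upper quartile on every array. Hoxc12 gave 6.25, 6.82 and 7.78 in HET mice, against 5.71, 7.01 and 7.78 in WT mice. The remaining 7 Hoxc genes (Hoxc4, Hoxc5, Hoxc6, Hoxc8, Hoxc9, Hoxc10 and Hoxc11) had means between 3.38 and 4.64, all below the array median.

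In the Hoxa cluster, Hoxa6, Hoxa7 and Hoxa9 were above the array median on every array. Hoxa9, a gene known for its part in blood progenitors and leukaemia, gave 7.83, 8.23 and 8.5 in HET mice, against 7.56, 8.15 and 8.58 in WT mice. Hoxa7 gave 6.78, 7.26 and 7.46 in HET mice, against 6.58, 7.18 and 7.84 in WT mice. On either side, Hoxa6 averaged 5.48 and Hoxa10 5.17 over all mice. Hoxa11, which patterns the forearm and the uterus, averaged 3.51, and Hoxa13, needed for digits and the hindgut, 4.36.

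In the Hoxb cluster Hoxb3 averaged 6.32 and Hoxb13 6.05, and the 7 others lay between 3.98 and 5.40. Hoxb13, the last Hoxb gene, restrains growth of the tail in mouse embryos. It gave 5.41, 5.90 and 7.04 in HET mice, against 5.14, 6.05 and 6.89 in WT mice, and was above the array median on every array.

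**Figure D1:**
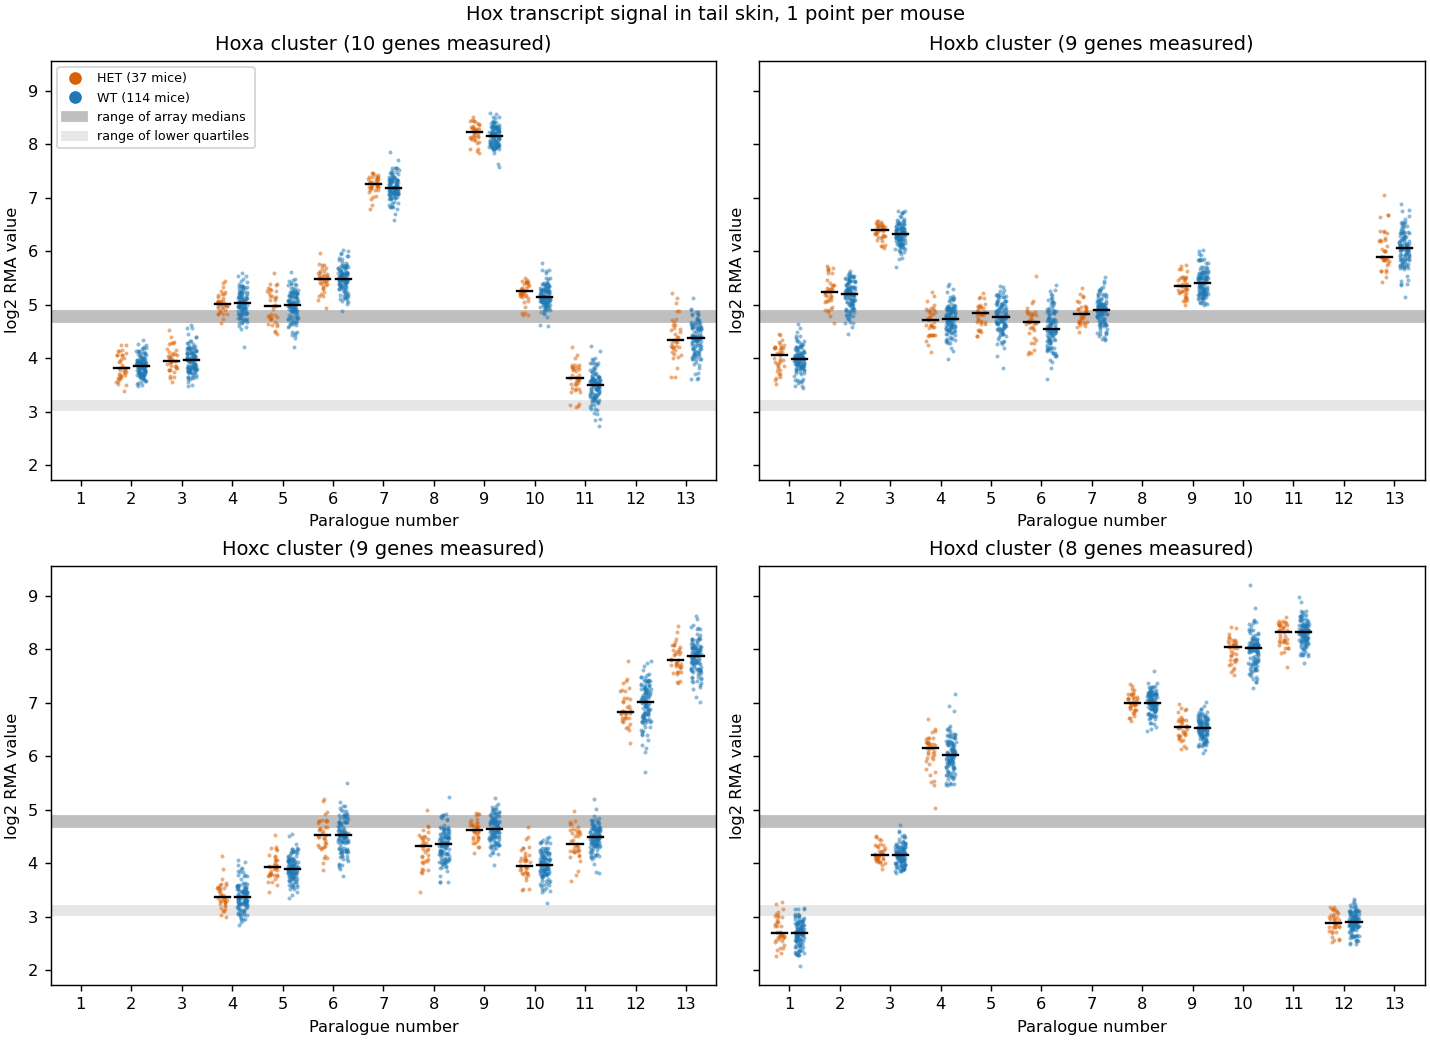
Log2 RMA signal (y axis) of each measured Hox gene by paralogue number (x axis) in 4 panels, 1 per cluster; orange points are the 37 HET mice, blue points the 114 WT mice and black bars group medians. Dark and light grey bands show the ranges of array medians (4.67 to 4.88) and of lower quartiles (3.02 to 3.20); Hoxd8 to Hoxd11, Hoxc12, Hoxc13, Hoxa7 and Hoxa9 lie well above them, and HET and WT points overlap for every gene.

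The spread between mice was like that of other genes. The median residual SD was 0.233 for the Hox genes and 0.223 for all genes. Hoxc12 varied most, with a residual SD of 0.350, then Hoxb6 (0.329), Hoxb13 (0.321), Hoxd4 (0.320) and Hoxa13 (0.318). Hoxa9 had a residual SD of 0.177.

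Loss of 1 Hras allele was the study's genotype contrast, and its part and that of spretus ancestry around Hras cannot be told apart here. No Hox gene of 36 was called between HET and WT mice at an adjusted p under 0.05 (limma, Benjamini-Hochberg over all genes), where 0.112% of all genes were (0.0319% higher and 0.0797% lower in HET mice). At an unadjusted p under 0.05 there were 2 Hox genes (5.56%), against 6.57% of all genes. The fitted differences ran from -0.11 to 0.14, and every 95% interval, unadjusted, lay between -0.20 and 0.24. The median difference was 0.015 for the Hox genes.

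The smallest p belonged to Hoxa11, which gave 3.08, 3.62 and 4.20 (lowest, median, highest) in HET mice, against 2.73, 3.5 and 4.23 in WT mice. The groups overlapped, and the difference of 0.14 ± 0.052 (SE) had a limma adjusted p of 0.584, with 0.21, 0.10 and 0.11 on plates 1, 2 and 3 alone. For Hoxc11, a gene of the lumbar and sacral region, the values were 3.66, 4.36 and 4.97 in HET mice, against 3.81, 4.49 and 5.19 in WT mice, a difference of -0.11 ± 0.047 (SE, limma adjusted p = 0.679). On plates 1, 2 and 3 alone it was -0.34, -0.19 and 0.092, so its sign turned on plate 3. Hoxa10 (0.069 ± 0.038, SE), Hoxb3 (0.062 ± 0.035, SE) and Hoxa9 (0.058 ± 0.034, SE) followed, with intervals that include 0. For Hoxd11 the difference was -0.037 with a 95% interval from -0.12 to 0.044, and for Hoxc13 it was -0.036 with an interval from -0.14 to 0.070.

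Between males and females no Hox gene was called either, where 3.62% of all genes were (1.1% higher and 2.51% lower in males). At an unadjusted p under 0.05 the share was 6 of 36 (16.7%), against 16.4% of all genes. With each array centred on its median it was 8.33%, against 16.5%, and after quantile normalization 8.33%, against 16.2%. Hoxc8, a gene of the thoracic region, came nearest. It had 3.46, 4.26 and 5.0 in males, against 3.81, 4.42 and 5.24 in females, a difference of -0.14 ± 0.047 (SE, limma adjusted p = 0.0663). On plates 1, 2 and 3 alone it was -0.082, -0.28 and -0.073. It passed with the outlier-labelled arrays kept (-0.15, limma adjusted p = 0.0481) and in WT mice alone (-0.18, limma adjusted p = 0.0459).

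Hoxa5, known for lung and thoracic development, had 4.21, 4.96 and 5.58 in males, against 4.46, 5.08 and 5.60 in females, a difference of -0.11 ± 0.044 (SE, limma adjusted p = 0.172). In WT mice alone it differed by -0.16 (limma adjusted p = 0.0459) and in HET mice alone by 0.042. The interaction of genotype and sex was 0.22 ± 0.10 (SE, limma adjusted p = 0.998), so the difference between those values did not pass. Hoxc13 differed by -0.10 ± 0.046 (SE), Hoxa13 by 0.11 ± 0.052 (SE) and Hoxd11 by -0.075 ± 0.035 (SE), with limma adjusted p between 0.242 and 0.261. Beside these, 26 of 26 hair shaft genes had a male minus female difference below 0, with a median of -0.26, and 2 were called lower in males. Other lists leaned the same way, with 0 of 16 dermal papilla, 1 of 20 muscle and 2 of 19 cartilage genes above 0. The epidermis (12 of 18), melanocyte (7 of 12) and cell cycle (14 of 15) lists leaned the other way. Of all genes, 44.9% had a difference above 0. That share was 59.3% with each array centred on its median and 52.7% after quantile normalization, so the direction depended on normalization. The list counts were made on the deposited values alone. With scores of the hair shaft, muscle, fat, cartilage and fibroblast lists as covariates, Hoxc13 differed by -0.013, Hoxd11 by -0.017 and Hoxc8 by -0.12, while Hoxa13 passed (0.16, limma adjusted p = 0.0453).

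Of the other cell type lists, males had 4 of 14 follicle stem cell genes, 3 of 16 dermal papilla genes, 3 of 13 fat cell genes, 2 of 17 macrophage and dendritic cell genes, 1 of 11 nerve genes and 1 of 12 melanocyte genes called lower. They had 3 of 18 epidermis genes called higher, and 3 higher and 2 lower of 19 fibroblast genes. Of all genes, 2.51% were called lower and 1.1% higher in males (473 and 207 genes). With each array centred on its median, 271 were called lower and 348 higher, and after quantile normalization 302 and 329. None was called for cartilage, muscle, endothelium or cell cycle, and none of the 13 cell type lists had a call between HET and WT mice, where 0.112% of all genes were called. Some lists still leaned by genotype. In HET minus WT, 3 of 26 hair shaft genes (median -0.23), 2 of 17 macrophage and 2 of 15 cell cycle genes were above 0. Muscle (17 of 20, median 0.11), epidermis (13 of 18) and dermal papilla genes (12 of 16) leaned the other way. Of all genes, 49.9% were above 0. The part of these genes in the Hox values was not tested.

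No genotype by sex interaction was called among the Hox genes or among all genes (0% called, limma). At an unadjusted p under 0.05 there was 1 Hox gene, Hoxa5 (2.78%), against 4.76% of all genes. After Hoxa5 the smallest p-values belonged to Hoxb9 (0.17 ± 0.086, SE), Hoxb1 (0.13 ± 0.088, SE), Hoxb6 (0.17 ± 0.12, SE) and Hoxc10 (0.12 ± 0.095, SE). The 95% interval of 26 of the 36 interactions lay within 0.3 of 0.

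No Hox gene was called between plates, where 0.0213% of all genes were, and none had an unadjusted p under 0.05, where 0.808% did. That percentage is far below the share that such a test gives where no plate differs, which is 0.05 as a fraction of genes. The smallest p was that of Hoxb13 (unadjusted p = 0.0592, limma adjusted p = 1), whose means were 6.13, 6.05 and 5.98 on plates 1, 2 and 3. Hoxc12 averaged 7.05, 6.95 and 6.91, Hoxa9 8.11, 8.19 and 8.17, Hoxd9 6.49, 6.57 and 6.52, and Hoxa10 5.21, 5.17 and 5.15, with unadjusted p between 0.0907 and 0.143 (limma). These values may have been adjusted for plate before deposit, which the sources used here do not give. The test could then find little, so it cannot show how much plates differed at the start.

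**Figure D2:**
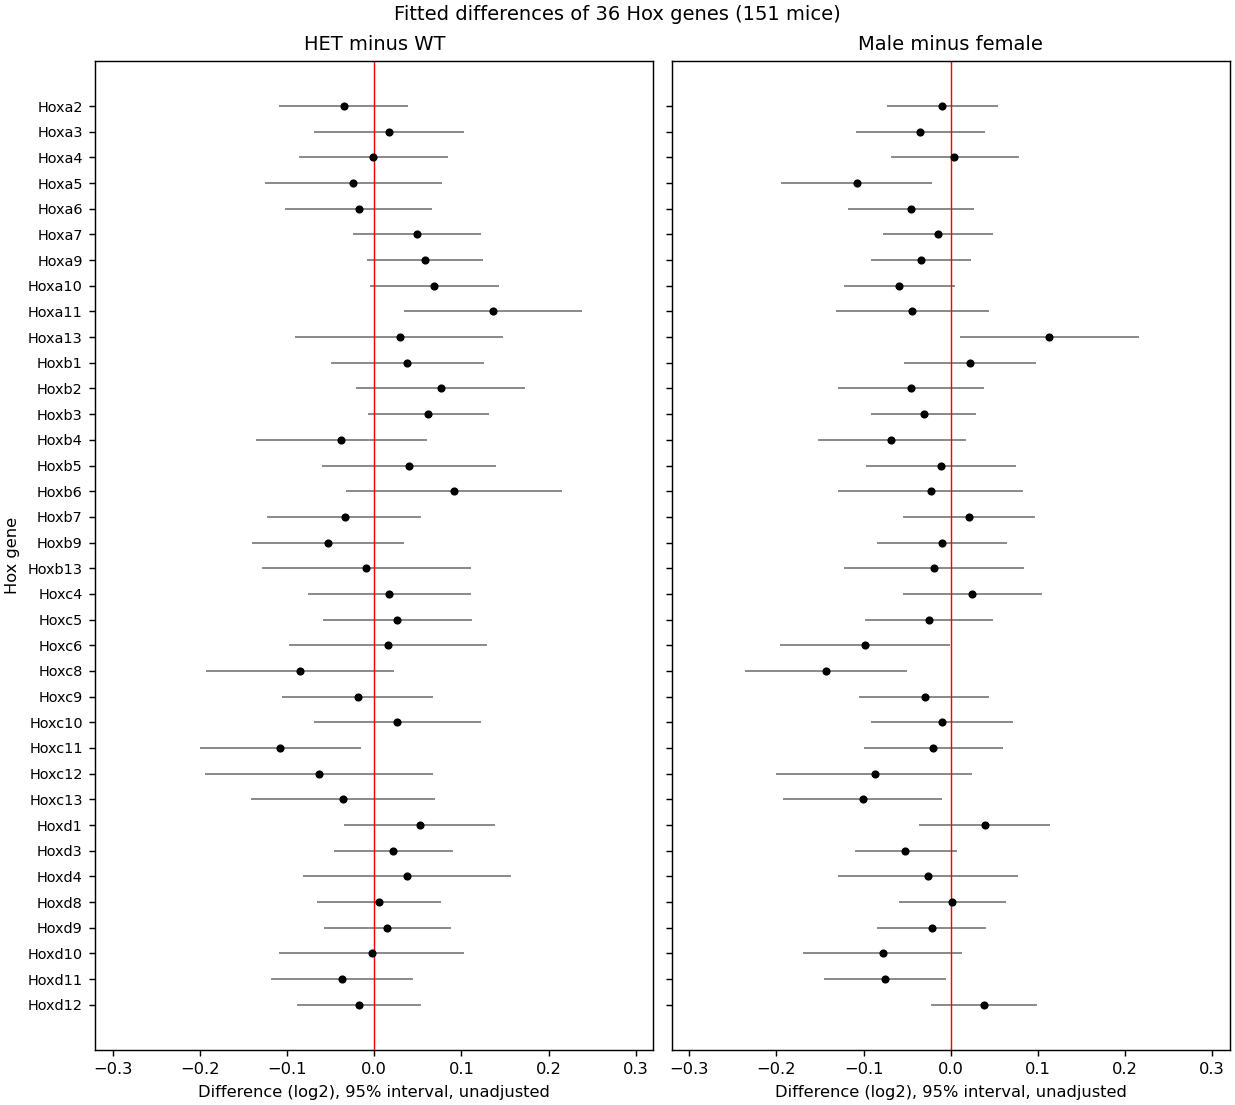
Fitted HET minus WT (left) and male minus female (right) log2 differences of the 36 Hox genes, with points for estimates and bars for 95% intervals, unadjusted, from limma with genotype, sex and plate in 1 model. Every point on the left lies between -0.11 and 0.14, and Hoxc8 at -0.14 is the farthest from 0 on the right.

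Although no group difference passed, the Hox genes varied together between mice. Of 630 pairs, 131 (20.8%) passed a permutation test with 100000 draws within plates (two-sided, Benjamini-Hochberg over the 630 pairs), 116 positive and 15 negative. The smallest r that passed was 0.211 in size. Over all pairs of the 18810 genes, 8.09% had an r at least that large in size (4.81% positive), and over pairs of genes above the array median 17.1% (10.5% positive). For Hox pairs with both members above it the share that passed was 45 of 153 (29.4%). The permutations can give no p below 1e-05.

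Neighbours on the chromosome passed most often. Of 32 pairs of adjacent measured genes in a cluster, 17 passed (53.1%), all positive, with a median r of 0.215. Pairs of a cluster that were not adjacent passed in 24 of 113 cases (21.2%), paralogues of the same number in 6 of 35 (17.1%), and pairs that shared neither in 84 of 450 (18.7%). All 15 negative pairs were of that last kind. Probe sets of paralogues target similar sequences, and cross-hybridisation was not tested. Backcross mice inherit long chromosome segments, which adjacent genes mostly share, and the part of shared segments in these pairs was not tested.

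Hoxd10 and Hoxd11 made the closest pair, with r = 0.732 (rho = 0.683, permutation test, adjusted p = 0.00018). On plates 1, 2 and 3 it was 0.797, 0.821 and 0.587, and leaving out the 2 mice with the most extreme Hoxd10 values gave 0.709. Hoxd4 and Hoxd10 followed with r = 0.676 (rho = 0.630), though Hoxd9 and Hoxd8 lie between them. Hoxd9 and Hoxd10, which are adjacent, gave r = 0.148, which did not pass, while Hoxd8 and Hoxd9 gave 0.403. So Hoxd4, Hoxd10 and Hoxd11 moved together, and Hoxd9 did not follow Hoxd10.

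In the Hoxa cluster Hoxa5 and Hoxa6 gave r = 0.432, Hoxa6 and Hoxa7 0.417, and Hoxa7 and Hoxa9 0.405, but Hoxa9 and Hoxa10 gave -0.142, which did not pass. In the Hoxb cluster Hoxb4 and Hoxb6 gave r = 0.450, with 0.081 on plate 3, and Hoxb9 and Hoxb13 gave 0.406. Hoxc12 and Hoxc13 gave 0.410. Pairs of the same cluster named here beside the 10 most positive and 5 most negative of all were chosen after their values were seen.

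Pairs across clusters reached similar sizes. Hoxc13 correlated with Hoxd10 at r = 0.509 and with Hoxd11 at 0.489, Hoxc6 with Hoxd10 at 0.508, Hoxb3 with Hoxd10 at 0.479, Hoxb2 with Hoxc12 at 0.469 and Hoxb6 with Hoxd4 at 0.455. Hoxd4 and Hoxd11 completed the 10 most positive pairs at 0.468. All 10 were positive on each plate, between 0.081 and 0.821. With hair shaft, muscle, fat, cartilage and fibroblast scores also removed, Hoxc13 and Hoxd11 gave 0.059 and Hoxc13 and Hoxd10 0.219, neither of which passed, while Hoxd4 and Hoxd10 gave 0.596 and Hoxd10 and Hoxd11 0.410.

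The most negative pairs joined Hoxb13, Hoxa13, Hoxa9, Hoxc12, Hoxd4 and Hoxd9. Hoxa13 and Hoxd4 gave r = -0.359, Hoxa9 and Hoxc12 -0.352, Hoxb13 and Hoxd4 -0.339, Hoxb13 and Hoxd9 -0.317, and Hoxa9 and Hoxb13 -0.292. Each of the 5 was negative on every plate, from -0.096 to -0.487. Leaving out the 2 mice with the most extreme values of the first gene gave 0.399 to 0.709 for the 10 positive pairs and -0.364 to -0.275 for these 5. All 15 also passed with Spearman's rho, with a largest permutation adjusted p of 0.0174. Hoxa13 and Hoxb13, both of paralogue group 13, gave r = 0.445 with each other, against -0.028 and -0.024 with Hoxc13. Against the 8 Hoxd genes Hoxb13 gave values from -0.339 to -0.056 and Hoxa13 from -0.359 to -0.043, all negative. These last values were chosen after they were seen. With the cell type scores removed, only Hoxa9 and Hoxc12 still passed among the 5, and Hoxb13 gave -0.215 with Hoxd4 and -0.057 with Hoxd9.

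**Figure D3:**
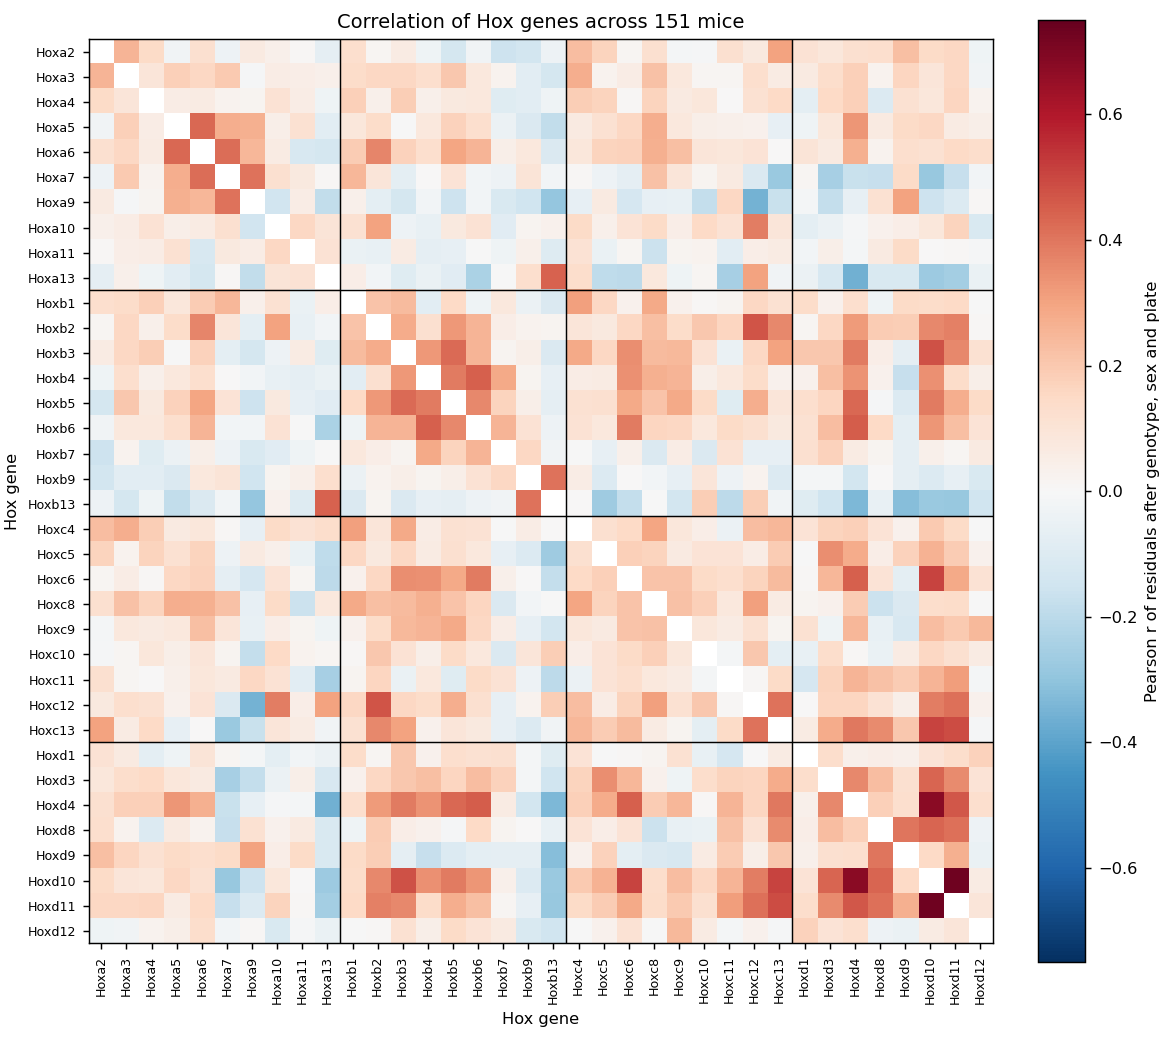
Pearson r between Hox genes across 151 mice (colour scale from -0.75 to 0.75), with genes in cluster order on both axes and black lines between clusters. Red blocks lie along the diagonal for Hoxa5 to Hoxa9, Hoxb2 to Hoxb6 and part of Hoxd, while Hoxa13 and Hoxb13 are blue against Hoxd4, Hoxd10 and Hoxd11.

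Each Hox gene was also set against 13 cell type scores, the mean standardised residual of a list's genes. Of 468 gene and list pairs, 117 (25%) passed a two-sided permutation test with Benjamini-Hochberg adjustment over all 468, 57 positive and 60 negative. The split was 47 positive and 89 negative with each array centred on its median, and 46 and 76 after quantile normalization. Among all genes 20.4% of such values were as large, at 0.204 or more in size. The share that passed was thus not far above the background.

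Scores of the hair shaft and inner root sheath ran with Hoxd11 (r = 0.714, rho = 0.703), Hoxc13 (r = 0.641, rho = 0.656) and Hoxd10 (r = 0.599, rho = 0.573), each with a permutation adjusted p of 0.000156. On plates 1, 2 and 3 they were 0.799, 0.751 and 0.644 for Hoxd11, 0.779, 0.487 and 0.602 for Hoxc13, and 0.720, 0.589 and 0.542 for Hoxd10. Hoxd8 gave 0.442 and Hoxb3 0.369 with the same list. Hoxa7 ran the other way, at -0.422 (-0.510, -0.477 and -0.304 by plate). Over all 36 genes, 10 were positive and 2 negative with this list, where 18.8% of all genes had a value as large in either direction.

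Scores of dermal tissue ran with Hoxb13. It gave r = 0.604 with dermal fibroblasts and matrix (rho = 0.595, permutation adjusted p = 0.000156), 0.60 with endothelium, 0.545 with cartilage, bone and tendon, 0.543 with the dermal papilla and -0.518 with epidermis. With hair shaft genes it gave 0.01. Hoxa13 gave 0.511 with the dermal papilla score. Hoxb13 also correlated at 0.686 with the first principal component of all genes, which held 8.4% of the variance and correlated at 0.845 with endothelial, 0.807 with fibroblast and -0.637 with epidermis scores. With that component removed, an alternative chosen after seeing the data, the Hoxb13 values were 0.122 for fibroblasts and 0.054 for endothelium and none of its 5 passed, nor did Hoxa13 with the dermal papilla (0.194). The hair shaft score correlated with that component at 0.003, so its removal could hardly lower the hair shaft values.

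Other genes sided with epidermis or against macrophages. The epidermis score gave 0.380 with Hoxa9, 0.354 with Hoxd4 and 0.297 with Hoxa5. The macrophage and dendritic cell score was negative for 13 Hox genes and positive for 2, where 26.1% of all genes had a value as large, and gave -0.552 with Hoxd11 and -0.290 with Hoxa6. The last of these was 0.004 on plate 3. Hoxd9 gave -0.383 with dermal fibroblasts. The follicle stem cell score gave 0.387 with Hoxb9, 0.314 with Hoxb2 and 0.246 with Hoxa10. Hoxc12 gave 0.429 with the dermal papilla. With the first principal component removed, Hoxd9 with fibroblasts (-0.053), Hoxd4 (0.141) and Hoxa5 (0.216) with epidermis and Hoxa10 with follicle stem cells (0.216) no longer passed. The largest value of Hoxa4 (hair shaft, 0.176) and of Hoxb7 (cell cycle, 0.140) did not pass.

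**Figure D4:**
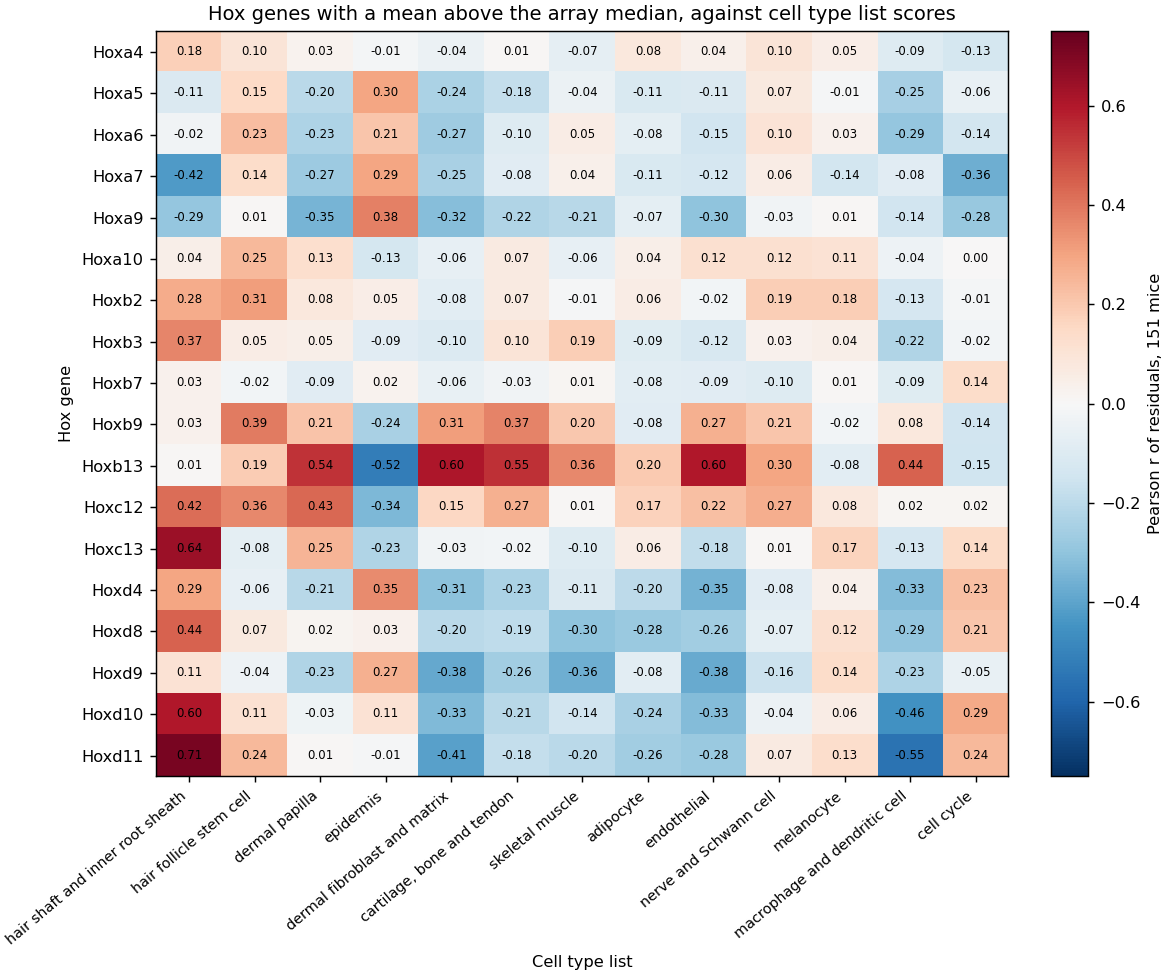
Pearson r (printed in each cell, colour scale from -0.75 to 0.75) between the 18 Hox genes with means above the array median (rows) and 13 cell type scores (columns) across 151 mice. Hoxc13, Hoxd10 and Hoxd11 are reddest for hair shaft, Hoxb13 for dermal papilla, fibroblast, cartilage and endothelial scores.

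The genes outside the family with the highest r across 151 mice are given as a description, without a test, for the Hox genes of largest spread above the array median. For Hoxc13 they were Foxn1 (0.744) and Dlx3 (0.703), transcription factors of hair shaft formation and members of the hair shaft list, then Cnpy4 (0.681), Prss53 (0.681) and the splicing factor kinase Clk3 (0.674). The Foxn1 value was 0.692, 0.768 and 0.788 on plates 1, 2 and 3. Foxn1 was itself called lower in males (-0.17 ± 0.047, SE, limma adjusted p = 0.0148). For Hoxc12 they were the signalling protein gene Bmp4 (0.679, with 0.710, 0.644 and 0.681 by plate), a member of the dermal papilla list, then Sike1 (0.663), Mlec (0.645), the transcription factor Snai2 (0.618) and the Wnt antagonist Sfrp1 (0.607).

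For Hoxb13 the list began with Dpysl2 (0.693), the collagen receptor Ddr2 (0.673), the growth factor receptor adaptor Grb10 (0.672), Bicc1 (0.664) and Loxl1 (0.662), which cross-links elastic fibres and stands in the fibroblast list. For Hoxd4 it began with the RNA helicase Ddx17 (0.720), the histone methyltransferase Nsd3 (0.690), the diacylglycerol kinase Dgka (0.684), the ubiquitin ligase Herc1 (0.684) and the splicing regulator Rbm5 (0.677). For Hoxd10 it was Herc1 (0.734), Samd5 (0.670), Padi4 (0.665), Nav2 (0.657) and the zinc transporter Slc39a10 (0.656). Herc1 was also among the 5 genes most like Hoxb3 (0.457) and Hoxc6 (0.489). Outside the naming rule, and chosen after their values were seen, the highest were Nav2 for Hoxd11 (0.779), Hlf for Hoxa7 (0.652) and Irx5 for Hoxa9 (0.611).

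**Figure D5:**
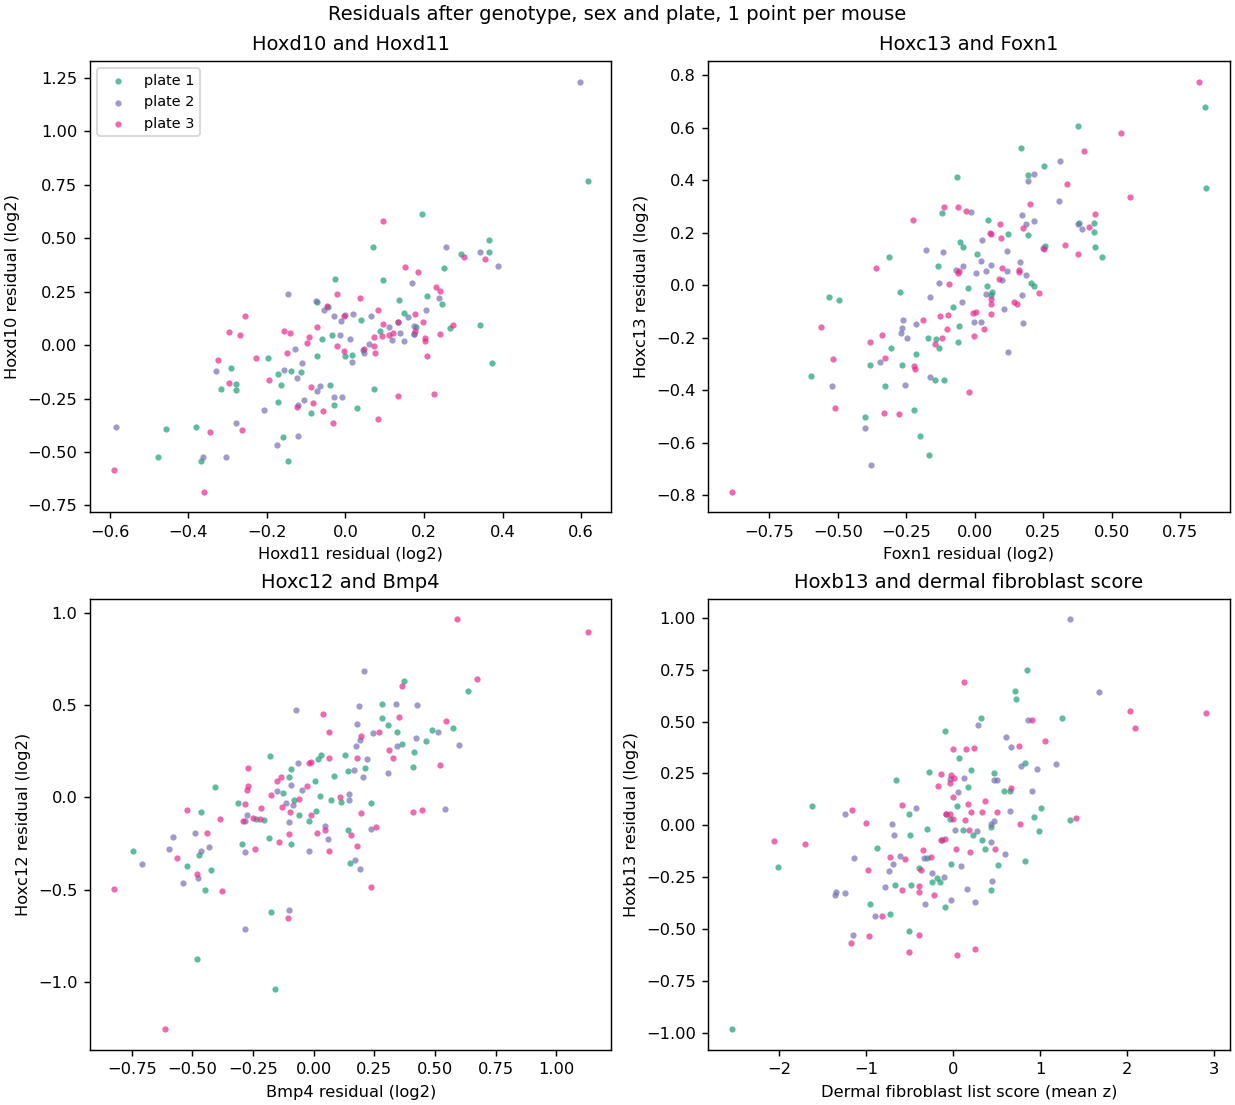
Residual log2 values after genotype, sex and plate, 1 point per mouse coloured by plate, for Hoxd10 against Hoxd11 (r = 0.732), Hoxc13 against Foxn1 (r = 0.744), Hoxc12 against Bmp4 (r = 0.679) and Hoxb13 against the dermal fibroblast score, a mean of standardised residuals (r = 0.604). Each r was positive on every plate, and slopes by plate were not fitted.

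Backcross mice inherit long chromosome segments, so the genes around each cluster were compared as well. Of r values between the 8 Hoxd genes and the 10 measured genes on each side of the cluster, 24.4% were at least 0.211 in size, against 9.5% for Hoxa, 8.89% for Hoxb, 9.44% for Hoxc and 8.09% of all gene pairs. The Hoxd genes also had more such values with genes on other chromosomes (14.2%, against 8.94% for Hoxa, 9.52% for Hoxb and 9.14% for Hoxc). The largest value with a neighbour was -0.464 between Hoxd9 and the transcription factor gene Atf2 (-0.404, -0.576 and -0.431 by plate). Of the 10 genes most correlated with Hoxd9, 5 lay on chromosome 2, which holds 8.65% of the genes: Ptprj (-0.545), Pard6b (0.50), Proser2 (0.465), Atf2 and Serping1 (-0.458). Hoxa11 had 4 of 10 on chromosome 6 (5.53% of genes), led by Retsat (0.337), and Hoxb9 had 4 of 10 on chromosome 11 (7.78% of genes), led by Sh3pxd2b (0.438). These 3 had the highest counts of the 36 Hox genes and are named for that. Of the others, 15 had none of their 10 on their own chromosome, Hoxc13, Hoxc12 and Hoxd4 among them, 12 had 1, 5 had 2 and 1 had 3.

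Up to 100 measured genes on each side of a Hox gene were also taken. That gave 107 to 117 nearby genes for each Hoxc gene and 191 to 193 for each of the others. The share of r values at least 0.211 in size was higher nearby than on other chromosomes for 28 of the 36 genes, with medians of 12.8% and 8.77%. Hox genes of a cluster share most of their nearby genes, so these 36 comparisons are not independent. The gap was wide for Hoxa11 (5.24% near and 0.705% elsewhere), Hoxb9 (22.4% and 8.72%) and Hoxc13 (27.4% and 14.3%), chosen after their values were seen. Even so, 0 of the 10 genes most correlated with Hoxc13 lay on chromosome 15. The cause of these gaps was not tested. It was small for Hoxd4 (29.0% and 25.6%), Hoxd10 (28% and 25%) and Hoxd11 (22.3% and 21.4%). For the other 8 genes, Hoxa7, Hoxa9, Hoxa13, Hoxc4, Hoxc5, Hoxc6, Hoxd3 and Hoxd12, the share nearby was the lower one, as for Hoxa9 with 15.7% near and 19.1% elsewhere.

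Partners and regulators of Hox proteins were measured in 5 further lists, and the non-coding RNAs of the clusters in 1 more. Their calls stand beside 3.62% of all genes called between sexes and 0.112% between genotypes. Of the TALE cofactors, which bind DNA together with Hox proteins, 8 of 9 were measured and none passed in either contrast. Pbx2 averaged 7.09, Meis1 6.56 and Pbx3 6.25. Of 22 Polycomb and Trithorax genes, which keep Hox genes silent or active, Rnf2 was called lower in males (-0.085 ± 0.024, SE, limma adjusted p = 0.0244) and none was called between genotypes. Of 23 Cdx, retinoid and axial genes, Rara (-0.097 ± 0.027, SE) and Crabp1 (-0.21 ± 0.061, SE) were called lower in males. Of 21 positional transcription factors, Tbx15 was called lower (-0.21 ± 0.063, SE) and Tbx18 higher (0.13 ± 0.041, SE) in males. Among 13 homeobox genes of the Hox loci and the related ParaHox group, Pdx1 was called lower in HET mice (-0.20 ± 0.048, SE, limma adjusted p = 0.0459), with a dim mean of 3.24. None of 8 non-coding RNA genes passed.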

How the data were processed

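Tail skin RNA of 153 mice was hybridised to Affymetrix arrays. The authors deposited log2 values that RMA had summarised, as the submitters' processing notes name it; the RMA version, and whether anything was adjusted afterwards, is not stated in the sources used here. Symbols and gene order came from a RefSeq table (GRCm38.p6). Of 35385 probe sets with values, 21201 had 1 symbol, and the brightest per gene gave 18810 genes. One linear model per gene (limma 3.58.1, R 4.3.3, trended eBayes) held genotype, sex and plate, and calls were made at a Benjamini-Hochberg adjusted p under 0.05. Correlations used residuals (Python 3.11.15, numpy 2.4.6, scipy 1.17.1), with 100000 draws within plates, and were recomputed on each plate and with the 2 most extreme mice left out. Both steps were tested on simulated data.

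Members and the 19 gene lists were chosen with earlier results of these data known. Named with statistics were the 5 smallest p per comparison, the 10 most positive and 5 most negative pairs, the 10 largest list values, each bright gene's largest list value, the 5 most like genes of Hoxc13 and of the bright genes of largest spread, and up to 3 called list members. Homeodomain sequences were not used here, and the Hras transcript is not reported here. Nothing in the labels ties mice to litters, so the p-values treat each mouse as independent. Shared parents or litters could not be taken into account.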

Additional observations from a re-analysis of the deposited data

How the results depend on the processing

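No Hox gene was called for genotype, plate or interaction under any alternative run: outlier-labelled arrays kept, array centring, quantile normalization, mean probe sets, a dim-gene filter, other variance models, and, where run, single plates, no plate term, 1 sex, or cell type covariates. For sex, 1 gene was called with the outlier-labelled arrays kept, 2 in WT mice alone and 1 with cell type covariates. Among all genes, most sex calls were lower in males on the deposited values. Most were higher in males after array centring or quantile normalization. Signs turned for Hoxc11 between genotypes on plate 3 (0.092), for Hoxa5 between sexes in HET mice (0.042) and its interaction on plate 1 (-0.075), for Hoxb7 with cell cycle on plate 1 (-0.064) and for Hoxa6 with macrophages on plate 3 (0.004). The cause was not tested.

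Pairs numbered 116 positive and 15 negative. They were 74 and 4 with cell type scores removed, 35 and 4 on plate 1 alone, and 9 and 0 on plate 3 alone. On plate 2 alone, 49 of 60 called pairs were positive, and with arrays centred 24 of 141 were negative. Of the 131 called, 109 remained with the first principal component removed, and 128 kept their sign on plate 3. List values numbered 57 positive and 60 negative. They were 23 and 24 on plate 1, 28 and 8 on plate 2, 14 and 10 on plate 3, and 33 and 30 with the first principal component removed, chosen after seeing the data. A single plate holds fewer mice than all 3, but plate 3, with 56, holds the most and gave the fewest calls, and the cause was not tested. Of 180 values for named pairs under these alternatives, 150 kept their call and 30 lost it.

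No paired analysis was possible because the labels number mice singly and pair none across groups. Precision is limited by 37 HET mice and, for Hoxd1 and Hoxd12, by signals near the bottom of the scale.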
